A study of Homo sapiens with 8 samples.

Results

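The insulin-like growth factor (IGF) axis was examined in LP-1 cells, a human multiple myeloma line, through 9 genes: the ligand IGF1, the secreted binding proteins IGFBP2, IGFBP3 and IGFBP4, the receptors IGF1R, INSR and IGF2R, and the adaptors IRS1 and IRS2. They are 9 of the 63129 genes with a row in the deposited table. The group was chosen by the RPKM values of IGFBP3 in the SGC-CBP30 libraries and their DMSO libraries, and the other 8 genes were taken by name as its ligand, relatives, receptors and adaptors. Values of the 9 genes in that comparison are therefore a description, given with a standard error and without a test. Their values with the second compound, CPI203, come from separate libraries and were tested where the level allowed. The spread used in those tests was estimated over all 8 libraries, including those that chose the group. Earlier results of these data were also known when the genes were picked.

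RNA was sequenced after 6 hr in 8 libraries, which form 4 groups of 2 biological replicates. LP-1 cells received 2.5 μM SGC-CBP30, an inhibitor of the acetyl-lysine binding bromodomains of CBP and EP300, or 250 nM CPI203, an inhibitor of the BET family of bromodomains. Each compound was set against its own pair of DMSO libraries, called the SGC control (for SGC-CBP30) and the CPI control (for CPI203). The pairs were matched to the compounds by the naming series in the labels, which state no other link. The study asked how blocking either kind of bromodomain alters gene expression. All groups are 1 cell line, and each compound was given at 1 dose and 1 time, so doses of the compounds are not matched and their values stand side by side. In bulk RNA, fewer cells that express a gene and less of its RNA per cell cannot be told apart.

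IGF1 binds the receptor tyrosine kinase IGF1R, which phosphorylates the docking proteins IRS1 and IRS2, and these recruit PI3 kinase and the RAS pathway. INSR, the insulin receptor, is a close relative of IGF1R and forms hybrids with it, whereas IGF2R has no kinase, clears IGF2 from the cell surface and carries mannose-6-phosphate-tagged enzymes to lysosomes. Binding proteins of the IGFBP family hold IGFs outside the cell and limit or prolong their access to the receptor, and IGF1 is a known growth and survival factor for myeloma cells.

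Values are RPKM, read numbers scaled by gene length and by the mapped reads of the library, so that levels can be compared between genes. Changes are differences of log2(RPKM + 0.1), called log2 fold changes here, with the standard error (SE) of a limma model over the 8 libraries. A gene was tested if its mean over the libraries was at least 1 RPKM. It was called when its Benjamini-Hochberg adjusted p over all 14732 tested genes was under 0.05 and its change at least 1.5-fold. Of the 9 genes, 7 passed this filter, and IGFBP2 and IGFBP4 did not. IRS2 passed at a mean of 1.03 RPKM only through its high level with CPI203. With 2 libraries against 2 an exact two-sided permutation test cannot go below p = 0.333, so the tests rest on the spread that limma pools over genes.

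All 8 plasma cell and myeloma markers examined were present in every library, with summed levels of 1746 to 2809 RPKM. None of the markers of T cells, monocytes, stroma or epithelium reached 1 RPKM in any library. The 3 T cell markers summed to 0.0338 to 0.0890 RPKM in the SGC-CBP30 experiment and to 0.830 to 1.13 RPKM in the CPI203 experiment. From the step between low values, the libraries held an estimated 26100000 to 50100000 reads. The deepest 2 were those with SGC-CBP30, and 1 read in a gene of 2000 bases was worth 0.00998 to 0.0192 RPKM.

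The promoters of 3 members are shown because IGFBP3 and IGFBP4 were the members with the largest decrease with SGC-CBP30 and IRS2 was the member with the largest increase with CPI203. Each line gives the 250 bases before the RefSeq start site on GRCh38.p14, read 5′ to 3′ on the strand of the gene. IGFBP3 lies at chr7:45921273-45921522 on the minus strand, IGFBP4 at chr17:40443200-40443449 on the plus strand and IRS2 at chr13:109786584-109786833 on the minus strand. Capitals mark matches on either strand to motifs of the core promoter. The TATA box was searched as TATAAA. A related repeat, called the TATA repeat here, was searched as TATATA. The GC box, the site of SP1-like factors, was searched as GGGCGG, and its reverse complement is marked where the match lies on the other strand.
IGFBP3: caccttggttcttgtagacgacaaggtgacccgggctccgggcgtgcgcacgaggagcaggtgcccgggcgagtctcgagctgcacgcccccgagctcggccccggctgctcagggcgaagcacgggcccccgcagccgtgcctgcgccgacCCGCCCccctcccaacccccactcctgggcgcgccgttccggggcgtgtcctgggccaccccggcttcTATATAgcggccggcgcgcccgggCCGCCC
IGFBP4: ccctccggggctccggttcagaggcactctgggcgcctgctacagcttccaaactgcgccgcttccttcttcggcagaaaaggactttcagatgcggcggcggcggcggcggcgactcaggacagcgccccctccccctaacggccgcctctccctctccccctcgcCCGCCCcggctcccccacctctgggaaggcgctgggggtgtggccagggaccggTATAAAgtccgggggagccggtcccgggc
IRS2: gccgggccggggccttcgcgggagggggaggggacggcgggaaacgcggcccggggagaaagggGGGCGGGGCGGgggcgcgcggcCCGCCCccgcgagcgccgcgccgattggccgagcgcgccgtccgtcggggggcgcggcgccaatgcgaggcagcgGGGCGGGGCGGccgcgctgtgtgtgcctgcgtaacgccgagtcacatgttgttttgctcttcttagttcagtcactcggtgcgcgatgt

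IGFBP3 held 1 TATA repeat and 2 GC boxes, 1 on each side of it. IGFBP4 held 1 TATA box and 1 GC box, and IRS2 held 5 GC boxes, some of which overlap, without either TATA motif. Over 35116 RefSeq promoters of the same length, 3.73% held the TATA repeat, 10.7% the TATA box and 42.6% the GC box. Neither an E-box (CACGTG, in 6.34% of promoters) nor a FOXO element (GTAAACA, in 2.98%) was found in these 3 windows. Their GC content was 76%, 71.6% and 76.4%, in that order, against a median of 58.0% for all promoters. These matches are letters in a window, and the expression data do not show which factors bind there.

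IGFBP3 (ENSG00000146674, chr7:45951948-45961473 on hg19, the build of the deposited positions) is the most abundant IGF carrier of blood and can restrain IGF1 signaling at the cell surface. Its RPKM was 22.7 and 22.8 in the SGC control, 3.39 and 2.97 with SGC-CBP30, 5.08 and 4.83 in the CPI control, and 3.71 and 3.71 with CPI203. The SGC control stood far above the other 6 libraries, and no group overlapped another. With SGC-CBP30 the mean went from 22.8 ± 0.11 to 3.18 ± 0.30 (SD, n = 2 each), which is 0.140 of the DMSO level and a log2 fold change of −2.80 (SE 0.088). This was the third largest decrease among the 14732 tested genes, and it is the value for which the gene was chosen. Leaving out any 1 library gave −2.90 to −2.71.

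With CPI203 the mean of IGFBP3 was 3.71 ± 0.0010 against 4.95 ± 0.17 (SD, n = 2 each), or 0.749 of its DMSO level. The log2 fold change was −0.41 (SE 0.088, limma adjusted p = 0.00247), which was past the p threshold but short of 1.5-fold, so that it was not called. With a separate fit for each experiment the SE was 0.108 (limma adjusted p = 0.0119). The difference between the 2 responses was −2.40 (SE 0.12) on the log2 scale, given as a description because it contains the value that chose the gene.

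The DMSO pairs differed in IGFBP3 without any compound. The level in the SGC-CBP30 experiment was 4.59 times that in the CPI203 experiment, a log2 difference of 2.18. With the 14732 genes ordered from the largest excess in the SGC-CBP30 experiment downward, IGFBP3 ranked 22nd. Among tested genes, 3.08% differed at least 2-fold between the DMSO pairs, and 1.36% did so with the higher level in the SGC-CBP30 experiment. The size of each response therefore depended on the control. With all 4 DMSO libraries as controls, the log2 fold change was −1.71 with SGC-CBP30 and −1.496 with CPI203. Against the control pair of the other compound, a comparison added after the data were seen, it was −0.63 with SGC-CBP30 and −2.58 with CPI203. These values contain libraries by which the gene was chosen and the difference between the DMSO pairs, so they are given without a test. The T cell marker sums given above also differed between the experiments, in DMSO and compound libraries alike, whereas IGFBP3 was high in the SGC control alone. A link between them was not tested. The experiments also differ in library series, and this and the cells' starting state cannot be told apart.

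IGFBP4 (chr17:38599701-38613983 on hg19), an inhibitory binding protein that is cleaved by the protease PAPPA, followed a like pattern at a level below the filter. Its RPKM was 1.399 and 1.53 in the SGC control, 0.263 and 0.349 with SGC-CBP30, 0.407 and 0.460 in the CPI control, and 0.207 and 0.275 with CPI203. The first pair was the only one above 1 RPKM, and each compound group lay below its own DMSO group. In a fit without the filter the log2 fold change was −1.95 (SE 0.20) with SGC-CBP30, to 0.209 of DMSO, and −0.65 (SE 0.20) with CPI203, to 0.555 of DMSO. Leaving out 1 library gave −2.11 to −1.80 and −0.80 to −0.51. As with IGFBP3, the DMSO level was 3.38 times higher in the SGC-CBP30 experiment. IGFBP2 (chr2:217497550-217529159 on hg19), another carrier of IGF1 and IGF2, was listed at 0 in 7 of the 8 libraries and at 0.0406 RPKM in replicate 1 of the SGC control.

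IGF1, the ligand (chr12:102789644-102874423 on hg19), was expressed by these cells and was lower with each compound. Its RPKM was 10.7 and 9.63 in the SGC control, 6.85 and 6.54 with SGC-CBP30, 12 and 13.6 in the CPI control, and 7.18 and 7.11 with CPI203. All 4 DMSO libraries lay above all 4 compound libraries. CPI203 lowered IGF1 to 0.559 of its DMSO level, from 12.8 ± 1.1 to 7.15 ± 0.047 (SD, n = 2 each), a log2 fold change of −0.83 (SE 0.085, limma adjusted p = 1.68e-05), and the gene was called. Against the control pair of the other compound the change was −0.50, which was short of 1.5-fold and is given without a test. With SGC-CBP30 it was −0.59 (SE 0.085), at the 1.5-fold limit, between −0.67 and −0.52 when 1 library was left out, and −0.92 against the control pair of the other compound.

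**Figure D1:**
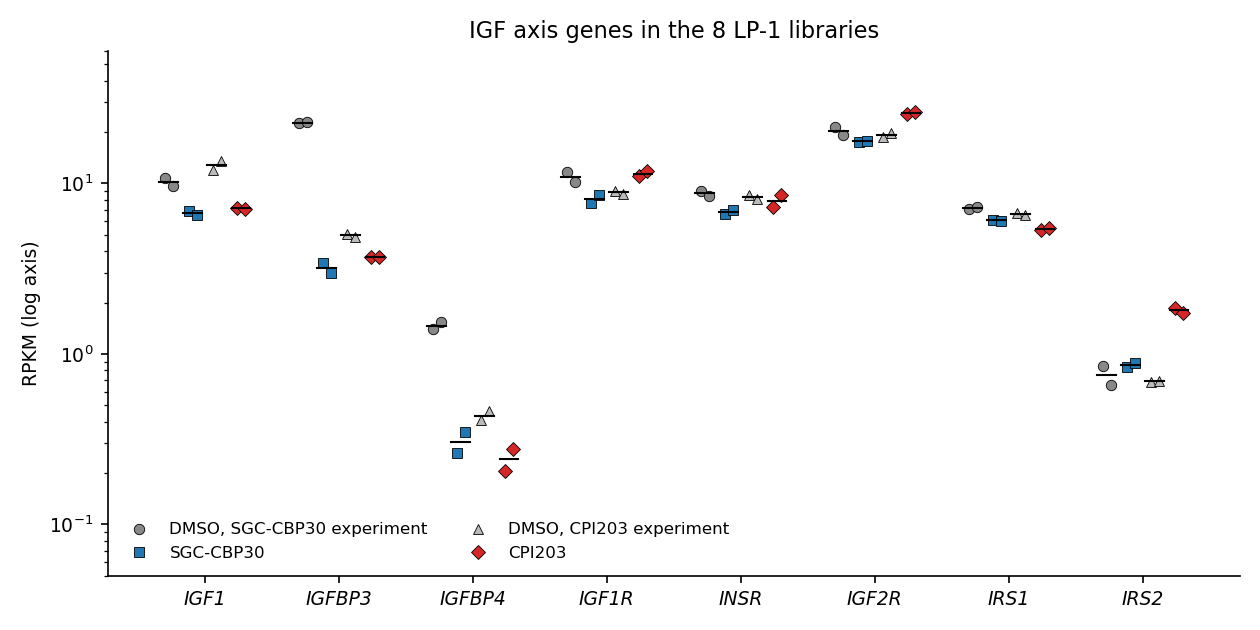
RPKM of 8 IGF axis genes on a log axis in each of the 8 LP-1 libraries, where each symbol is a library and each bar the mean of a group of 2; IGFBP2, at or near 0, is left out. IGFBP3 and IGFBP4 stand high in the SGC control alone, at means of 22.8 and 1.46 RPKM, while IGF1 is higher in all 4 DMSO libraries than in any compound library.

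The receptors differed from DMSO by less than 1.5-fold, and IGF1R and IGF2R did so in opposite directions with the compounds against their own controls. IGF1R, the signaling receptor for IGF1 (chr15:99192199-99507759 on hg19), was at 11.7 and 10.2 RPKM in the SGC control, 7.62 and 8.5 with SGC-CBP30, 9.07 and 8.66 in the CPI control, and 11.04 and 11.8 with CPI203. It was lower than its own DMSO in both SGC-CBP30 libraries and higher in both CPI203 libraries. The log2 fold change was 0.36 (SE 0.088, limma adjusted p = 0.00511) with CPI203, under 1.5-fold, and −0.43 (SE 0.088) with SGC-CBP30. Both values were smaller against the control pair of the other compound, at 0.07 with CPI203 and −0.14 with SGC-CBP30, and with all 4 DMSO libraries as controls, at 0.21 and −0.28.

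IGF2R showed the same arrangement at a higher level. Its RPKM was 21.5 and 19.2 in the SGC control, 17.4 and 17.8 with SGC-CBP30, 18.8 and 19.9 in the CPI control, and 25.5 and 26.2 with CPI203. The CPI203 libraries were above all others. The log2 fold change was 0.42 (SE 0.064, limma adjusted p = 0.000261) with CPI203, to 1.34 times DMSO and not called, and −0.20 (SE 0.064) with SGC-CBP30. The latter was −0.12 without replicate 1 of the SGC control and −0.13 against the control pair of the other compound. The locus of IGF2R (chr6:160390130-160534539 on hg19) overlaps the transcript RP11-288H12.3, which had a mean of 1.20 RPKM.

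INSR (chr19:7112265-7294045 on hg19) was at 8.998 and 8.46 RPKM in the SGC control, 6.62 and 7.01 with SGC-CBP30, 8.53 and 8.12 in the CPI control, and 7.26 and 8.55 with CPI203. The CPI203 libraries spanned their DMSO libraries, and no change was detected (log2 fold change −0.08, SE 0.092, limma adjusted p = 0.476). The direction rested on 1 library, since the value was 0.04 without CPI203 replicate 1. With SGC-CBP30 both libraries were below both of their DMSO libraries, at a log2 fold change of −0.35 (SE 0.092).

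The adaptors IRS1 and IRS2, which couple the activated receptors to PI3 kinase, differed from each other. IRS1 (chr2:227599756-227664475 on hg19) was at 7.08 and 7.31 RPKM in the SGC control, 6.11 and 6.03 with SGC-CBP30, 6.68 and 6.57 in the CPI control, and 5.31 and 5.46 with CPI203. It was a little lower with either compound, with log2 fold changes of −0.24 (SE 0.076) for SGC-CBP30 and −0.29 (SE 0.076, limma adjusted p = 0.00674) for CPI203. The latter was under 1.5-fold and not called. Against the control pair of the other compound the value with SGC-CBP30 was −0.12.

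IRS2 (chr13:110406183-110438915 on hg19) was scarce in the DMSO libraries and more abundant with CPI203. Its RPKM was 0.849 and 0.656 in the SGC control, 0.840 and 0.890 with SGC-CBP30, 0.686 and 0.692 in the CPI control, and 1.86 and 1.74 with CPI203. The CPI203 pair lay above the other 6 libraries, and the SGC-CBP30 pair overlapped its DMSO pair. The mean with CPI203 was 2.61 times that of DMSO, going from 0.689 ± 0.0045 to 1.80 ± 0.086 (SD, n = 2 each), with a log2 fold change of 1.27 (SE 0.21), or 0.73 with a pseudocount of 1. Because the filter let the gene in through this group, no test of it is given. With SGC-CBP30 the log2 fold change was 0.19 (SE 0.21), with 0.02 to 0.35 when 1 library was left out (the lowest without replicate 2 of the SGC control, the highest without its replicate 1) and −0.01 after quantile normalization.

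**Figure D2:**
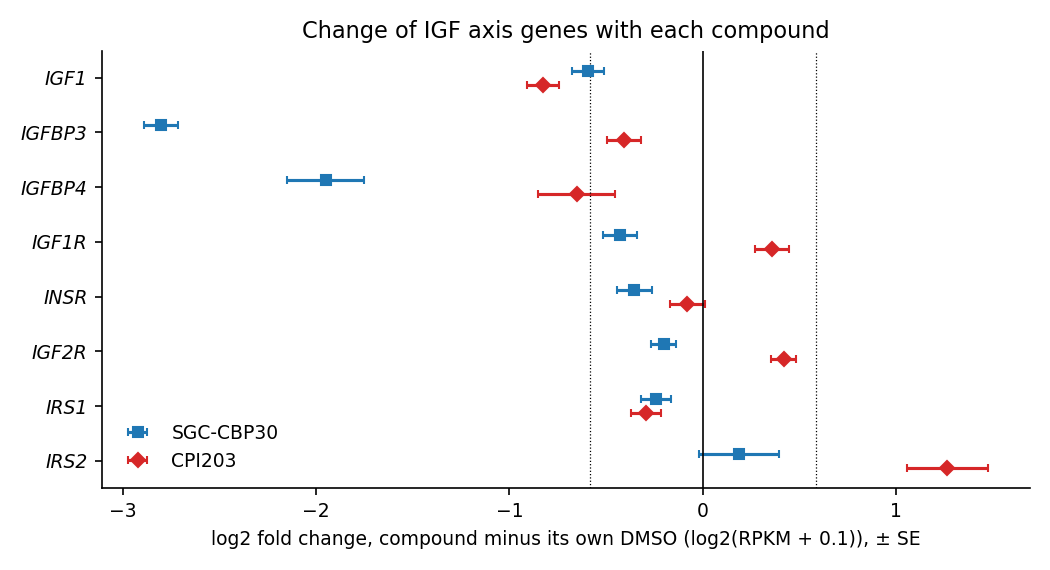
Log2 fold change of each IGF axis gene, compound minus its own DMSO on log2(RPKM + 0.1), with bars of ± 1 SE from the limma model (IGFBP4 from the fit without a filter) and dotted lines at 1.5-fold. IGFBP3 and IGFBP4 lie far to the left with SGC-CBP30, at −2.80 and −1.95, and IGF1R and IGF2R lie on opposite sides of 0 with the 2 compounds.

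Counts over the members are set beside those of the whole table. With CPI203, IGF1 was the 1 gene called among the 6 tested members other than IRS2, where 27.8% of all tested genes were called, 13.4% higher and 14.4% lower. With SGC-CBP30, 7.26% of all tested genes were called, 3.47% higher and 3.79% lower, and no count of called members is given there, since that comparison chose the group. As a description, the median log2 fold change of the 7 members over the filter was −0.35 with SGC-CBP30, beside 0.07 over all tested genes, and −0.08 with CPI203, beside −0.01. Both medians include IGFBP3, whose decrease with SGC-CBP30 chose the group, and IRS2, so no result about the axis is drawn from them. Without overlap between a compound and its DMSO were 7 of 9 members with each compound, which was so for 73.1% of tested genes with SGC-CBP30 and 80.8% with CPI203. The 9 members include IGFBP3, by which the group was chosen, and IRS2, which passed the filter through its CPI203 level. They also include IGFBP2 and IGFBP4, which are not among the tested genes. Of the SGC-CBP30 calls over all genes, 47.8% were higher in the deposited values, 32.5% after median scaling and 32.4% after quantile normalization. The signs with SGC-CBP30 of the 7 members over the filter were the same under both scalings, apart from IRS2 as given.

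In levels per length, IGFBP3 was first of the 9 genes in the SGC control and sixth in each of the other 3 groups. IGF2R was first in those 3 groups, at 17.6 to 25.9 RPKM. Neighbors in this order overlapped between libraries in 2 places, IGF1R and IGF1 in the SGC control and INSR and IGF1 with SGC-CBP30. IRS2, IGFBP4 and IGFBP2 were the lowest 3 in every group.

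Genes with a pattern like that of IGFBP3 were sought over the 8 libraries among 2363 tested genes. Their group means spanned at least 1 on the log2 scale. Every symbol with a dot or a hyphen was left out, to drop clones and pseudogenes. The 5 nearest by Pearson correlation were RASSF4 (0.985), C10orf54 (0.982), P2RX7 (0.974), PARP14 (0.973) and C20orf112 (0.971), and 20 genes reached 0.95. RASSF4, a RAS association domain protein, was at 104.1 and 106.5 RPKM in the SGC control, 28.2 and 25.4 with SGC-CBP30, 46.2 and 44.4 in the CPI control, and 30.0 and 30.0 with CPI203. It was highest in the first pair, which the choice by correlation with IGFBP3 over the same libraries fixes. The log2 fold change with SGC-CBP30 was −1.13 for PARP14, an ADP-ribosyltransferase, and −1.08 for P2RX7, an ATP-gated channel, given as descriptions for the same reason. Over these 8 points, which fall in 4 groups and share their libraries, the ranking is loose: 2 of the 5 genes stayed among the nearest with a pseudocount of 1, and 2 with Spearman correlation. Within the axis, the correlation with IGFBP3 was 0.97 for IGFBP4, 0.79 for IRS1, 0.66 for INSR, 0.47 for IGF1, 0.44 for IGF1R, −0.04 for IGF2R and −0.42 for IRS2.

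IGFBP7, a low-affinity relative of the binding proteins from the list of other pathway genes, had a correlation of 0.95 with IGFBP3. Its RPKM was 14.3 and 13.7 in the SGC control, 4.07 and 4.22 with SGC-CBP30, 6.57 and 4.53 in the CPI control, and 5.41 and 6.35 with CPI203. The SGC control lay above all other libraries and the SGC-CBP30 pair below them. IGFBP7 fell with SGC-CBP30, by a log2 fold change of −1.73 (SE 0.15, limma adjusted p = 3.90e-05), and with CPI203 the change was 0.10 (adjusted p = 0.584). The responses differed by −1.83 (SE 0.21, limma adjusted p = 8.98e-05). Here too the DMSO level was 2.53 times higher in the SGC-CBP30 experiment. With all 4 DMSO libraries as controls the log2 fold change with SGC-CBP30 was −1.06 (limma adjusted p = 0.000232), still called. Against the control pair of the other compound, a comparison added after the data were seen, it was −0.39 (limma adjusted p = 0.0618), and the call was lost.

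**Figure D3:**
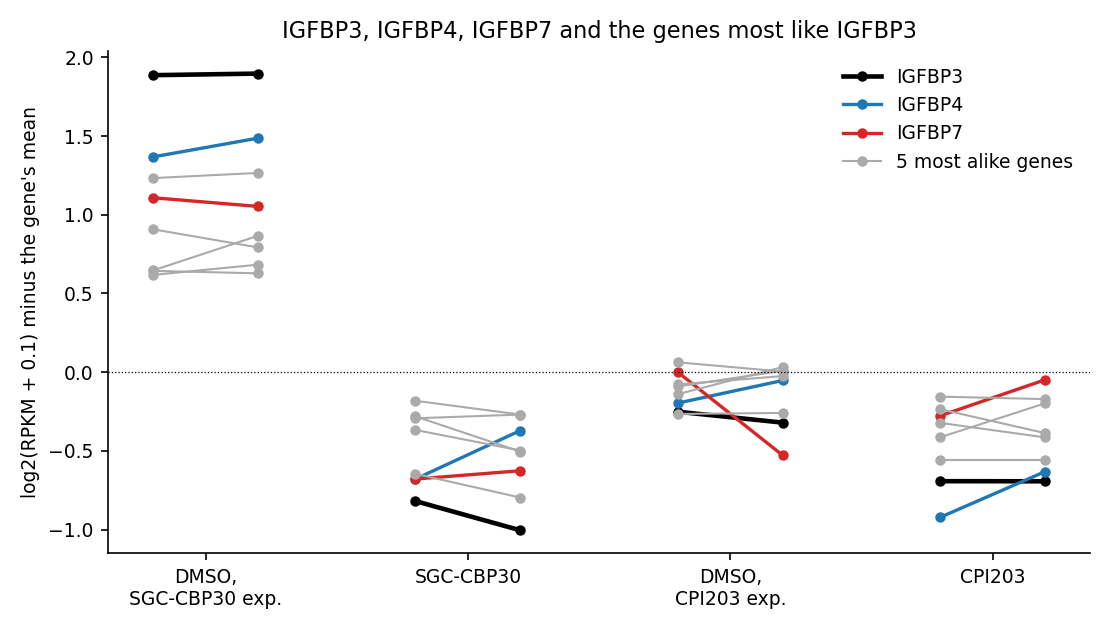
Level of IGFBP3, IGFBP4, IGFBP7 and the 5 genes most like IGFBP3 in each library, as log2(RPKM + 0.1) minus the mean of the gene over the 8 libraries; points are libraries and lines join the 2 libraries of a group. All 8 genes are above their mean in both libraries of the SGC control and below it in both SGC-CBP30 libraries.

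The remaining pathway was read from a list of 82 other genes, of which 64 passed the filter. Few ligands and carriers were expressed beside the members: IGF2, the second ligand, IGFBP5 and the protease PAPPA were near 0, and IGFBP1 was listed at 0 in every library. With SGC-CBP30, 3 of the 64 genes (4.69%) were called, beside 7.26% of all tested genes, and the median log2 fold change of the 64 was −0.0033 against 0.07 over all genes. These were IGFBP7, DEPTOR, an inhibitor of the mTOR kinase, which fell from 155.1 ± 1.9 to 77.1 ± 1.3 RPKM (log2 fold change −1.01, SE 0.036, limma adjusted p = 2.25e-07), and PHLPP2, a phosphatase that acts on AKT, which rose from 1.85 ± 0.17 to 3.01 ± 0.24 (log2 fold change 0.67, SE 0.12, limma adjusted p = 0.00223). The change of PHLPP2 was short of 1.5-fold, and so not called, in some alternatives. It was 0.58 without replicate 2 of the SGC control and 0.49 with a pseudocount of 1. Against the control pair of the other compound it was 0.55.

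With CPI203, 21 of the 64 genes (32.8%) were called, 15 higher and 6 lower, beside 27.8% of all tested genes. The median log2 fold change of the list was 0.10 against −0.01 over all genes. The largest change was that of STC2, a secreted inhibitor of PAPPA, which fell from 9.39 ± 1.2 to 1.06 ± 0.093 RPKM (log2 fold change −3.02, SE 0.11, limma adjusted p = 2.09e-08). DEPTOR fell from 169.6 ± 3.4 to 38.3 ± 1.0 (−2.14, SE 0.036, adjusted p = 4.97e-10), more than with SGC-CBP30 at its own dose by 1.14 on the log2 scale (adjusted p of the difference 3.98e-07). MLST8, a subunit shared by both mTOR complexes, fell from 64.3 ± 2.8 to 36.4 ± 0.56, a log2 fold change of −0.82 (limma adjusted p = 3.44e-07). SH2B2, an adaptor of the insulin receptor, and IGF2BP1, an RNA-binding protein that takes its name from IGF2 mRNA, fell by 1.08 and 1.03 on the log2 scale (limma adjusted p = 7.31e-06 and 5.68e-05).

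Genes of the PI3 kinase branch were among those that rose with CPI203. PIK3CA, a catalytic subunit, went from 7.42 ± 0.25 to 21.1 ± 0.027 RPKM (log2 fold change 1.496, SE 0.069, limma adjusted p = 1.07e-07), and PHLPP2 from 2.02 ± 0.027 to 5.75 ± 0.015 (1.46, adjusted p = 4.06e-06). PDPK1, the kinase that activates AKT, rose by 0.94 (limma adjusted p = 1.45e-07). EIF4EBP2, a translation repressor under mTOR control, rose by 1.04, TSC1, a brake on mTOR, by 0.86, and SOS2, a RAS exchange factor, by 0.85 (limma adjusted p = 5.65e-08, 0.000217 and 5.39e-06). The 9 other called genes also rose, by 0.59 to 0.78 on the log2 scale.

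The regulatory subunit PIK3R2 is uncertain. Its main row fell with CPI203 from 3.06 to 1.498 RPKM (log2 fold change −0.99, limma adjusted p = 0.000467), whereas a second row with the same symbol went from 3.35 to 4.13 RPKM in the same libraries, so reads may be split between them. By branch, and beside 13.4% higher and 14.4% lower over all genes, 4 of 14 tested PI3 kinase and AKT genes were higher with CPI203. The 1 lower gene of that branch was the main row of PIK3R2, which is also among the lower list genes counted above. In the TOR branch 3 of 13 were higher and 2 lower. Of the 13 tested adaptors and inhibitors near the receptors 3 were higher and 1 lower, and 2 of 6 FOXO and GSK3 genes and 2 of 8 RAS and MAPK genes were higher. The responses to the compounds differed at an adjusted p under 0.05 for 39 of the 64 list genes (60.9%), beside 50.3% of all tested genes.

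**Figure D4:**
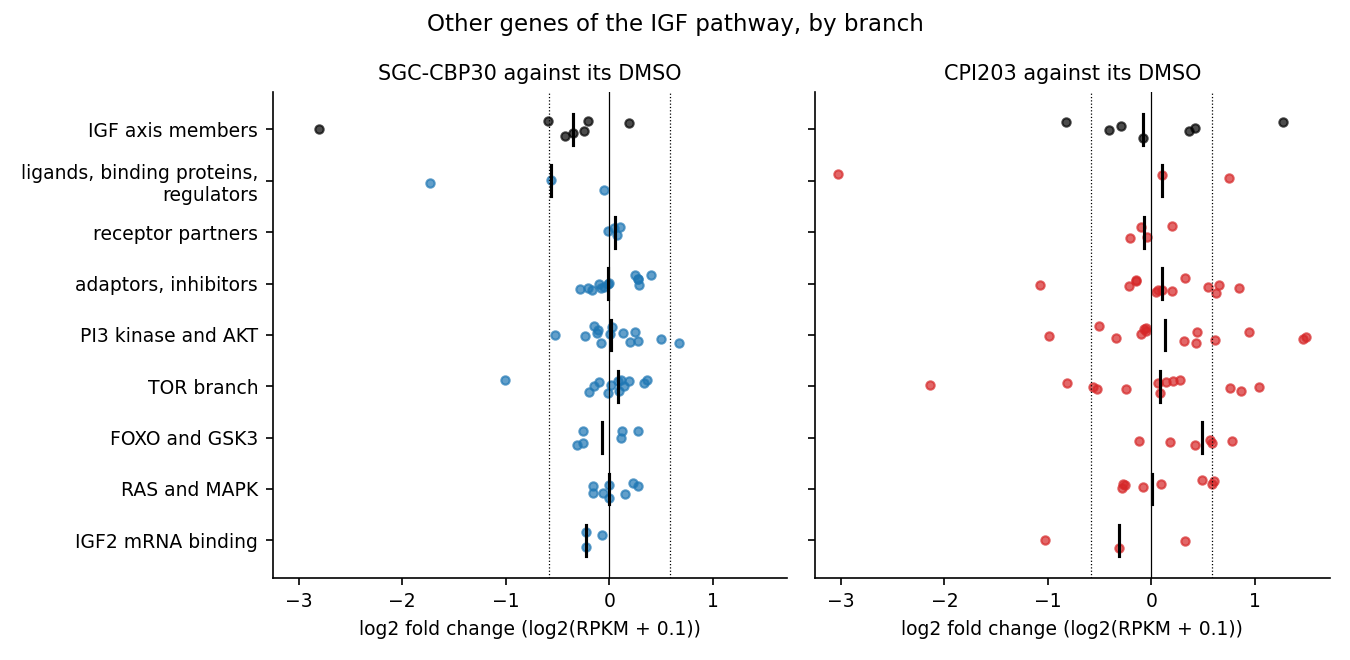
Log2 fold change of the 7 tested IGF axis members and the 64 tested list genes, grouped by branch, with each compound against its own DMSO; points are genes, black bars branch medians and dotted lines 1.5-fold. IGFBP3 is the leftmost point with SGC-CBP30 at −2.80, and STC2 with CPI203 at −3.02.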

How the data were processed

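Total RNA from LP-1 cells was prepared with on-column DNase digestion and sequenced and mapped by a service provider. The deposited values are RPKM, given by the authors for each gene in each library, with replicates kept apart. The submitters' processing notes name TopHat 1.4.1, Cufflinks and hg19 without stating their roles, and the annotation release is not given in the sources used here. RPKM holds no counts, so precision at low levels was judged from an estimated depth. Values under 0.5 RPKM of single-exon, single-transcript genes of at least 800 bases (GENCODE 29 lengths) were used. The depth chosen put the largest share of them within 0.05 of an odd whole number of reads. At that depth 55% to 69.9% of them were whole within 0.05 reads. A further 24 columns of libraries outside this set were not used. Gene symbols come from the deposited annotation; 27 genes lacking a value in some library were dropped.

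DMSO libraries were matched to a compound by the naming series in their labels. Members and gene lists were chosen with earlier results of these data known. Group means of log2(RPKM + 0.1) were fitted with limma 3.58.1 (R 4.3.3, trended empirical Bayes) to all 8 libraries and the 14732 genes averaging 1 RPKM or more, and p-values, two-sided, were adjusted over all of them. The script was tested on simulated data. Genes named are all members, the list genes called with either compound (the 12 largest changes where over 12 were called) and the 5 genes most correlated with IGFBP3. For 2 list symbols with 2 rows, the row with the higher mean was used. Alternatives changed the pseudocount (1), filter (none, or 5 RPKM), scaling, controls, trend, replicate block and each library in turn. Replicates differed by an SD of 0.0909 to 0.115 on the log2 scale over genes of at least 10 RPKM, and at most 0.0241% of values were identical. Promoters are from RefSeq (GRCh38.p14), with 12 matched to the 9 members.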

Additional observations from a re-analysis of the deposited data

How the results depend on the processing

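The changes of the 7 members over the filter kept their sign under the alternatives (IGFBP2 and IGFBP4 were fitted only without a filter, and IGFBP4 also with each library left out), with the exceptions of INSR with CPI203, which was −0.08 as reported and ranged from −0.1949 to 0.03715 when 1 library was left out (the latter without CPI203 replicate 1), and IRS2 with SGC-CBP30, −0.01 after quantile normalization. Values against other controls stand beside the results of IGFBP3, IGF1 and IGF1R. With SGC-CBP30 they also stand beside those of IGF2R, IRS1, IGFBP7 and PHLPP2. DEPTOR with SGC-CBP30 stayed called, at −1.14 against the control pair of the other compound and −1.07 with all 4 DMSO libraries as controls. The 12 list genes named with CPI203 also stayed called with both of these controls. IGF2R with CPI203 was 0.35 against the control pair of the other compound, short of 1.5-fold as before. For the other named genes such values are not given. Over all genes, calls with SGC-CBP30 numbered 1070, but 667 with a pseudocount of 1 and 505 among genes averaging 5 RPKM or more, and calls with CPI203 numbered 4095, but 2590 among the latter; that filter tests fewer genes. List calls with SGC-CBP30 rose from 3 to 5 without a filter, 5 after median scaling, 5 after quantile normalization and 6 against the DMSO pair of the other experiment, the last chosen after seeing the data; the cause was not tested. Leaving out 1 library gave 902 to 1079 calls with SGC-CBP30, 4033 to 4160 with CPI203, 6211 to 6941 genes that differed between the responses (7416 with all libraries), and 2 to 4 and 19 to 21 list calls; the count of 2 came without replicate 2 of the SGC control.

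Libraries share replicate numbers, but same-numbered libraries did not deviate together (correlation −0.17 in the SGC-CBP30 experiment and −0.04 in the CPI203 experiment), and the study speaks of paired DMSO controls without saying which libraries form a pair, so the numbers were not taken as pairs. With a replicate block there were 1057 and 4120 calls, 6729 genes that differed, and 3 and 21 list calls, and no call of a tested member changed. With the pairing crossed in the SGC-CBP30 experiment, added after seeing the data, these were 1076, 4113 and 7248. Levels under about 0.02 RPKM, the value of 1 read in a gene of 2000 bases, are not resolved.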

Other observations

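Of the 64 tested list genes, 2 differed at least 2-fold between the DMSO pairs, beside 3.08% of all tested genes. Both were higher in the SGC-CBP30 experiment. These were IGFBP7, by 1.35 on the log2 scale, and the main row of PIK3R2, by 1.23. The second row of PIK3R2 went the other way, with means of 0.267 RPKM in the SGC control and 3.35 RPKM in the CPI control. IRS2 overlaps the transcript AL162497.1, which had a mean of 0.520 RPKM.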
